A study of Mus musculus with 12 samples.

Results

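The genes described here are those of the receptors that bind TGF-beta and activin and of the SMAD proteins that act below them. There are 9 of them among the 55401 genes of the deposited count table: *Tgfbr1*, *Tgfbr2*, *Acvr1b*, *Acvr2a*, *Acvr2b*, *Smad2*, *Smad3*, *Smad4* and *Smad7*. They were chosen by symbol as the core of this pathway, and all 9 were matched. *Smad4* was picked for its counts in these libraries, which went opposite ways by follicle stage with dorsomorphin, so its values are given as a description with no test.

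RNA was measured in oocytes of juvenile C57Bl/6j x CBA/J mice, 3 libraries for each of 4 groups. The groups were oocytes from primordial follicles and oocytes from primary follicles, each from control ovaries or from ovaries exposed to dorsomorphin (DM), which inhibits the energy sensor AMPK. The labels call the controls sham and the material in vivo, whereas the study's methods describe ovaries held in culture for several days with the solvent DMSO or with DM, and that description is used here. Oocytes were cut by laser capture microdissection, on morphology alone, from fixed and stained sections, were pooled for each library, and their RNA was amplified before sequencing. Fewer transcripts in each oocyte, cells other than oocytes in the captured area and loss during amplification cannot be told apart in such libraries.

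TGF-beta and activins are secreted dimers that bring together type II receptors, which are constantly active kinases, and type I receptors, which the type II receptors phosphorylate. The type I receptors ALK5 (*Tgfbr1*) and ALK4 (*Acvr1b*) phosphorylate SMAD2 and SMAD3. These then join SMAD4, the partner they share with the BMP branch, enter the nucleus and act on transcription, and SMAD7, itself a target of the pathway, blocks the receptors. Ligands of this family made by oocytes and granulosa cells, such as activin and GDF9, take part in early follicle growth. DM inhibits BMP type I receptors as well as AMPK, and those receptors are not among the 9 genes of the set.

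The libraries held from 14034586 to 42639326 counts, and from 2793 to 9216 genes in a library had more than 10 counts. TMM factors set the scale of each library, and each comparison of 2 groups had its own, computed on its 6 libraries. Computed over all 12 libraries, as for the interaction, they lay between 1.02 and 2.88 in the 6 primordial libraries and in primary control replicates 1 and 2. They lay between 0.259 and 0.610 in primary control replicate 3 and the 3 primary DM libraries, so these 4 stand apart. A count of 0 allows up to 3 counts, which is 0.0704 to 0.214 CPM here, where CPM are the counts in every 1000000 of a library. The labelled cell type was checked against markers. Of 10 oocyte markers, 6 to 9 had more than 3 counts in the primordial controls, 3 to 4 in the primordial DM libraries, 4 to 7 in the primary controls and 2 to 4 in the primary DM libraries. *Ddx4*, a germ cell helicase, had 11 to 15 counts in 4 of the libraries, and *Sohlh2* had at most 2 anywhere. *Ddx4* reached 26640 counts in primordial control replicate 2 and 47451 in primary DM replicate 2. *Kit* reached 17965 counts in primordial DM replicate 2 and 13806 in primary control replicate 2. The 10 stroma markers, led by *Vim* and the collagens *Col1a1*, *Col1a2* and *Col3a1*, summed to 3204 to 14931 CPM in every library, above the 2.25 to 1350 CPM of the oocyte markers and the 0.760 to 225 CPM of 10 markers of growing oocytes. Of the stroma markers, *Lum* and *Tcf21* had at most 139 and 55 counts in any library. The 12 granulosa cell markers summed to 377 to 11562 CPM, with *Fshr* and *Cyp19a1* at 0 in all libraries, and the 10 blood and vessel markers to 0.0661 to 690 CPM, with *Hba-a1*, *Hbb-bs* and *Adgre1* at 0 in all libraries. The part of these other cell types in the results below was not tested.

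The genes of the pathway were measured at very different levels. On a scale per length (RPKM, that is CPM divided by the kilobases of exon), the median over the 12 libraries was 192 for *Smad3*, 98.3 for *Smad4*, 10.96 for *Tgfbr1* and 6.10 for *Smad2*. It was 0.122 for *Acvr2b* and below that for the other 4 genes, between 0.0023 for *Acvr2a* and 0.017 for *Tgfbr2*. The 4 genes with the higher medians had counts in all 12 libraries, as had *Acvr2b*. *Acvr2a* was at 0 in 6 libraries, *Acvr1b* in 5, *Smad7* in 4 and *Tgfbr2* in 3.

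**Figure D1:**
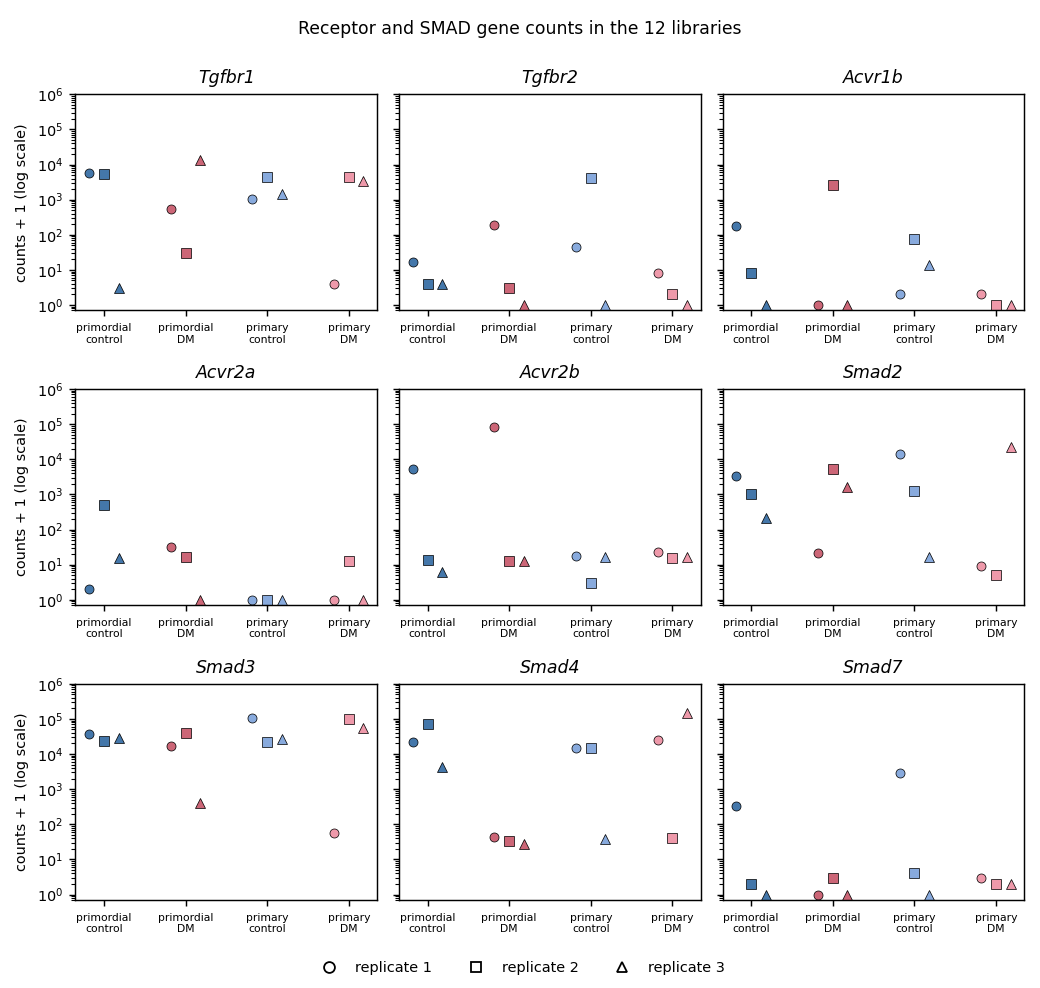
Counts of each gene in each of the 12 libraries, plus 1, on a log axis, with 1 panel a gene, 1 column a group and 1 symbol a replicate. The 3 primordial DM libraries of *Smad4* sit between 27 and 42 counts, as do 1 primary control and 1 primary DM library (38 and 41), while *Smad3* is above 10000 counts in 10 of 12 libraries.

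*Tgfbr1* (chromosome 4, 47353222 to 47414931 on GRCm38) encodes ALK5, the type I receptor of TGF-beta. Primordial controls held 5604, 5214 and 2 counts, and primordial DM libraries 525, 29 and 13204. In primary follicles the controls held 1036, 4527 and 1460 counts and the DM libraries 3, 4406 and 3379. It was thus high in most libraries of every group and low in 1 library of primordial controls, 1 of primordial DM and 1 of primary DM, and the groups overlapped. The log2 fold change with DM was 1.96 (standard error 2.52, adjusted p = 0.871 by the quasi-likelihood test of edgeR, Benjamini-Hochberg over all genes tested) in primordial and 0.63 (standard error 3.11, adjusted p = 0.921, same edgeR test) in primary follicles. The first value rests on DM replicate 3, since without it the log2 fold change was -3.36. The 95% intervals, from -3.09 to 7.001 and from -5.58 to 6.85, hold large changes either way.

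*Tgfbr2* (chromosome 9, 116084293 to 116175360) encodes the type II receptor that binds TGF-beta. Its counts were 16, 3 and 3 in primordial controls, 183, 2 and 0 in primordial DM libraries, 43, 4069 and 0 in primary controls and 7, 1 and 0 in primary DM libraries. Primary control replicate 2 held 94.0% of all its counts. The filter on low genes removed it from both DM comparisons, and the groups overlapped in each. Between the stages in controls its log2 fold change was 8.55 toward primary follicles (standard error 4.06, unadjusted p = 0.0353, adjusted p = 0.749, edgeR). Without primary control replicate 2 that value was 2.01.

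The activin receptors were at or near 0 in most libraries. *Acvr1b* (chromosome 15, 101174067 to 101213684), the gene of the type I receptor ALK4, had 178, 7 and 0 counts in primordial controls and 0, 2686 and 0 with DM. Primary controls held 1, 77 and 13 counts and primary DM libraries 1, 0 and 0. The 3 primary DM libraries therefore reached at most 1 count and the controls at least 1, a level at which 3 counts is the limit of what a 0 allows, and the filter removed the gene from both DM comparisons. Of the type II receptors, *Acvr2a* (chromosome 2, 48814109 to 48903269) had 1, 497 and 14 counts in primordial controls and 30, 16 and 0 with DM, and in primary follicles its counts were 0 in all controls and 0, 12 and 0 with DM. It shares 446 exon bases with *Orc4* on the opposite strand, and whether reads were counted by strand is not given in the sources used here. Its log2 fold change with DM in primordial follicles was -3.50 (standard error 2.67, adjusted p = 0.748, edgeR), and 0.16 without control replicate 2.

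*Acvr2b* (chromosome 9, 119402118 to 119434995) was high in 2 libraries only. Primordial controls had 5273, 13 and 5 counts and primordial DM libraries 82946, 12 and 12, while primary controls had 17, 2 and 16 and primary DM libraries 22, 14 and 16. Primordial DM replicate 1 held 93.9% of its counts, and outside the 2 high libraries the gene had 2 to 22 counts whatever the stage or exposure. The log2 fold change with DM was 4.89 in primordial follicles (standard error 2.30, unadjusted p = 0.0334, adjusted p = 0.658, edgeR). Leaving out DM replicate 1 turned it to -5.36. For primary follicles the value was 0.50 (standard error 2.21, adjusted p = 0.911, edgeR).

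Of the receptor-regulated SMADs, *Smad3* (chromosome 9, 63646767 to 63757994) was the more evenly counted. It had 38241, 23062 and 28223 counts in primordial controls and 17136, 39071 and 411 with DM. Primary controls held 103778, 21420 and 27163 counts and primary DM libraries 57, 101293 and 55442. All 6 control libraries held at least 21420 counts, and 1 DM library of each stage was far below the others. The highest library held 22.8% of its counts, against a median of 53.5% over the 8500 genes that passed the filter run on the 4 groups together. The log2 fold change with DM came to -0.68 (standard error 1.49, adjusted p = 0.942, 95% interval -3.65 to 2.30, edgeR) in primordial and 0.96 (standard error 2.63, adjusted p = 0.847, 95% interval -4.30 to 6.22, edgeR) in primary follicles.

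*Smad2* (chromosome 18, 76241580 to 76310963) was lower and more uneven. It had 3284, 1040 and 215 counts in primordial controls and 20, 5137 and 1666 with DM, and in primary follicles 13728, 1222 and 15 in controls and 8, 4 and 21853 with DM. DM and control overlapped in both stages, and in primary DM libraries replicate 3 held nearly all of the counts. The log2 fold changes with DM were 1.70 (standard error 3.04, adjusted p = 0.917, edgeR) in primordial and 2.25 (standard error 3.27, adjusted p = 0.716, edgeR) in primary follicles. Without primary DM replicate 3 the latter was -7.95, so its direction rests on that library.

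*Smad4* (chromosome 18, 73639009 to 73703780), the gene of the shared partner SMAD, had 21679, 69783 and 4399 counts in primordial controls and 42, 33 and 27 with DM. All 3 DM libraries were low and all 3 controls high, and the lowest control exceeded the highest DM library 227-fold in CPM. The medians were 573 CPM in controls and 1.10 CPM with DM, 521-fold apart. Primary controls held 14942, 15115 and 38 counts, and primary DM libraries 24716, 41 and 149078. Here 1 library of each group was as low as the primordial DM libraries, and the other libraries of both groups were high, so the groups overlapped. The log2 fold change with DM was -9.33 (standard error 2.66) in primordial follicles and 3.68 (standard error 3.02) in primary follicles. These are the values the gene was chosen for. With each library left out in turn the log2 fold changes ranged from -9.75 to -7.69 and from 1.27 to 4.72. The standard errors and these ranges describe the chosen values and are no test of them. In the same primordial libraries the number of oocyte markers over 3 counts was also lower with DM, without overlap, as given above. The summed CPM of these markers did overlap, at 25.8 to 1149 in controls and 16.7 to 1063 with DM. The part of the captured cell types in the *Smad4* counts was not tested.

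*Smad7* (chromosome 18, 75367529 to 75395935), the inhibitory SMAD, had 338, 1 and 0 counts in primordial controls and 0, 2 and 0 with DM. Primary controls had 2845, 3 and 0 counts and primary DM libraries 2, 1 and 1. Only replicate 1 of each control group exceeded 3 counts, and those libraries held nearly all of the reads of the gene. The filter removed *Smad7* from every comparison. Fits without the filter put the DM difference at -6.03 on the log2 scale in primordial follicles (SE 3.86, edgeR adjusted p = 0.493) and at -7.56 in primary follicles (SE 4.32, edgeR adjusted p = 0.350), which did not pass the threshold.

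With *Smad4* left out, 0 of the 5 genes of the set tested in primordial and 0 of the 4 tested in primary follicles passed at an adjusted p of 0.05 when DM was set against control (edgeR, Benjamini-Hochberg). Over all genes tested, 0.0149% (the gene *Pms2*) and 0% did. At an unadjusted p under 0.05, 1 gene of the 5 (*Acvr2b*) and 0 of the 4 passed in edgeR's test, beside 7.33% and 12.2% of all genes. DESeq2 gave an adjusted p for 3 of the 5 and 3 of the 4, all above 0.05, and none for *Tgfbr1* and *Acvr2b* in primordial or *Smad2* in primary follicles. Among those that passed the filter, *Smad4* alone had DM and control libraries that did not overlap in primordial follicles, and none did in primary follicles, where 13% of all genes tested had no overlap in each stage. The 5 tested genes other than *Smad4* had log2 fold changes with DM from -3.50 (*Acvr2a*) to 4.89 (*Acvr2b*) in primordial follicles. For the 4 in primary follicles they ran from 0.50 (*Acvr2b*) to 2.25 (*Smad2*). The medians of all genes tested were 0.13 in primordial and 0.31 in primary follicles, and these medians moved to 0.58 and 2.12 under DESeq2's size factors and to -0.43 and -0.96 under library size alone, which was added once the values were known. Genes with an unadjusted p under 0.05 in primordial follicles split into 166 higher and 325 lower with TMM, 297 and 289 with the size factors of DESeq2 and 71 and 373 with library size alone. Under library size alone *Smad3* and *Tgfbr1* changed sign in primary follicles, to -0.57 and -1.13.

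**Figure D2:**
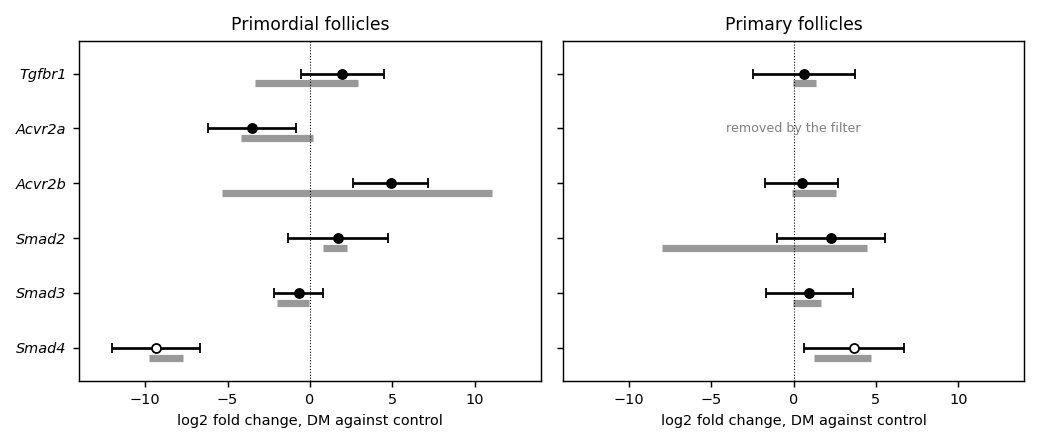
Log2 fold change with DM against control in primordial (left) and primary (right) follicles, as points with bars of 1 standard error, and below each the range over fits that left out 1 library (grey). *Smad4* is drawn open because it was chosen for these values, so its bar and range are no test. In primordial follicles the grey ranges of *Acvr2b* (-5.36 to 11.07), *Tgfbr1* and *Acvr2a* cross 0. In primary follicles those of *Smad2* (-7.95 to 4.44), *Smad3*, *Tgfbr1* and *Acvr2b* do.

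The same libraries allow the stages to be compared, and those comparisons share their samples with the ones above. In controls, 0 of 6 tested genes of the set other than *Smad4* passed after adjustment (edgeR, 0% of all genes) and 1, *Tgfbr2*, at an unadjusted p under 0.05, beside 6.44% of all genes. The log2 fold changes from primordial to primary follicles were 2.22 for *Smad2*, 1.40 for *Smad3*, 0.93 for *Tgfbr1*, 0.85 for *Acvr1b* and -4.95 for *Acvr2b*, with standard errors from 2.09 to 3.48 and adjusted p from 0.819 to 0.986 in edgeR's test. The value of *Acvr2b* was 2.11 without primordial control replicate 1. *Acvr2a*, which the filter removed, was the only gene of the set whose control libraries did not overlap between the stages, beside 9.69% of the genes tested, and 1 of those primordial libraries held a single count. Taken against 3 counts in each primary control library it was at least 36.0-fold lower there in mean CPM. That limit rests on primordial control replicate 2, without which it was at least 3.59-fold lower.

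In DM libraries, 0 of 4 genes other than *Smad4* passed after adjustment (edgeR, 0% of all genes) and 1, *Acvr2b*, at an unadjusted p under 0.05, beside 17.2% of all genes. Its log2 fold change from primordial to primary follicles was -8.96 (standard error 4.14, adjusted p = 0.286, edgeR), and 1.35 without primordial DM replicate 1. *Smad3* and *Smad2* had log2 fold changes of 3.32 and 2.95 and *Tgfbr1* one of -0.07, with adjusted p of 0.454, 0.618 and 0.993 in edgeR's test. No gene of the set had DM libraries that did not overlap between the stages, against 18.5% of all genes, since primary DM replicate 2 of *Smad4* lay within the primordial range. The interaction of stage and DM, fitted over all 12 libraries, passed for 0 of 7 genes other than *Smad4* after adjustment (edgeR, 0% of all genes). At an unadjusted p under 0.05 it passed for 3, *Tgfbr2*, *Acvr1b* and *Acvr2a*, beside 18.9% of all genes, and these are 3 of the genes with most libraries at or near 0.

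The order of the 4 groups by median RPKM differed from gene to gene. *Smad3* ran from 285 in primary DM and 275 in primary control to 182 in primordial control and 80.9 in primordial DM. *Smad4* ran from 242 in primary DM through 154 in primordial control and 118 in primary control to 0.296 in primordial DM. *Tgfbr1* was highest in primordial control (21.5) and lowest in primordial DM (2.10), whereas *Smad2* was highest in primary control (9.92) and lowest in primary DM (0.033). For all 9 genes each group overlapped its neighbour in that order.

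The receptors and SMADs work as complexes, so their counts were also read together within a library, with limits chosen after the values had been seen. *Smad3* and *Smad4* both exceeded 1000 counts in 3 of 3 primordial controls, 0 of 3 primordial DM libraries, 2 of 3 primary controls and 1 of 3 primary DM libraries. *Smad4* set the primordial difference, as 2 of the 3 DM libraries had over 10000 counts of *Smad3*. That difference restates the values *Smad4* was chosen for and is no separate result. *Smad2*, *Smad3* and *Smad4* together exceeded 100 counts in 6 of 12 libraries, divided among the groups in the same way. The chosen *Smad4* values again fixed the 0 of 3 in primordial DM libraries. The TGF-beta receptor pair *Tgfbr1* and *Tgfbr2* exceeded 10 counts together in 4 of 12 libraries, and both were above 100 in 2. *Acvr1b* with either activin type II receptor exceeded 10 counts in 3 of 12 libraries. Neither receptor pair did so in any primary DM library. Pairs within the set were also compared across the 12 libraries, without pairs of other genes as a reference. Over the 28 pairs of the 8 genes that passed the filter run on the 4 groups together, Pearson's r of log2(TMM-scaled CPM + 1) ranged from -0.37 (*Smad2* with *Acvr2b*) to 0.38 (*Smad2* with *Smad4*), with a median of -0.03, as a description of libraries that share their depth and amplification.

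The low counts of *Smad4* were alike from library to library. In its 5 low libraries, 3 primordial DM and 1 each of primary control and primary DM, it had 27 to 42 counts, which is 90.0 to 140 in every 1000000 of all its counts (ppm). For comparison, 119 genes had at least 99% of their counts in 1 library and a sum of at least 10000, and their other libraries held a median of 133 ppm of the gene's sum, with a 95th percentile of 947. For the 6 of these genes with a sum of at least 100000 the median was 140 and the range from the 5th to the 95th percentile was 52.0 to 322. The low *Smad4* libraries were thus within the range of libraries of genes with nearly all reads elsewhere. The 10 low libraries of *Acvr2b* held 22.6 to 249 ppm of its sum, and the low libraries of *Smad3* held 125 (primary DM replicate 1) and 903 (primordial DM replicate 3). What gives rise to these low counts was not tested. By this measure, chosen after the values had been seen, *Smad3* was above the 95th percentile in 10 libraries, *Tgfbr1* in 9, *Smad2* in 8, *Smad4* in 7 and *Acvr2b* in 2, where the median of the 4202 genes with a sum over 10000 was 7.

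**Figure D3:**
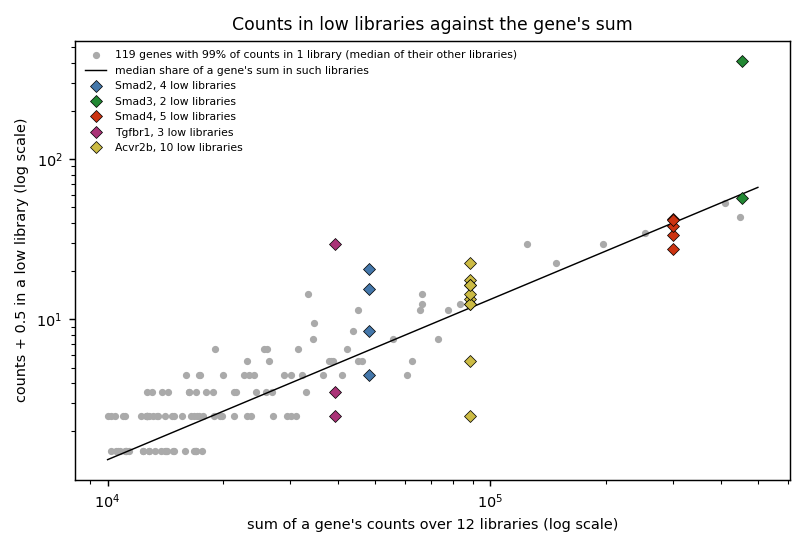
Counts, plus 0.5, in low libraries against the gene's sum over 12 libraries, both on log axes. Grey points are the 119 genes with at least 99% of their counts in 1 library (median of the others), the line is their median of 133 ppm of the sum, and diamonds are the low libraries of 5 genes of the set. The *Smad4* diamonds lie about the line, and the *Smad3* library with 411 counts lies above it.

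The rest of the pathway was read from 6 lists with 81 genes in all. Of these, 45 were tested in primordial and 39 in primary follicles, and 0 passed after adjustment in either (edgeR). At an unadjusted p under 0.05 in edgeR's test, DM libraries of primordial follicles had 1 higher and 3 lower genes, and those of primary follicles 2 and 2, which is 8.89% and 10.3% of those tested, beside 7.33% and 12.2% of all genes. The median log2 fold change over the tested list genes was 0.15 and 1.15, beside the medians of 0.13 and 0.31 of all genes. None of the 3 and 4 tested ligands, of the 2 and 1 tested co-receptors and other receptors, or of the 6 and 5 tested extracellular regulators such as the latent TGF-beta binding proteins passed even unadjusted.

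Among the 21 intracellular regulators, 17 were tested in primordial and 14 in primary follicles. *Smurf1*, a ubiquitin ligase that acts on SMADs and receptors, had 1303, 3603 and 4452 counts in primordial controls and 5, 3 and 0 with DM (log2 fold change -10.59, standard error 4.44, adjusted p = 0.644, edgeR). *Hgs*, an endosomal protein that brings SMAD2 and SMAD3 to the receptors, had 7401, 1980 and 1040 counts in primary controls and 0, 2 and 4 with DM (log2 fold change -9.61, adjusted p = 0.395, edgeR). It shares 2897 exon bases with a second annotated gene of the same symbol. Neither gene had overlapping groups, beside 13% of all genes tested in each stage, and both were named for a small unadjusted p. *Dab2*, an endocytic adaptor, had 731, 14 and 12 counts in primary controls and 48279, 30176 and 28 with DM, so that 1 DM library lay within the control range (log2 fold change 8.25, adjusted p = 0.396, edgeR).

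Of the 15 nuclear partners, 9 and 7 were tested. *Zeb2*, a repressor that binds SMADs, was high in all libraries of primordial follicles with DM, at 74512, 25515 and 41737 counts against 23567, 268 and 1703 in controls (log2 fold change 3.68, adjusted p = 0.622, edgeR). *Sox4*, a transcription factor, had 2390, 17289 and 18239 counts in primordial controls and 52, 37 and 259 with DM (log2 fold change -6.37, standard error 2.74, adjusted p = 0.650, edgeR). *Zeb2* and *Sox4* share 653 and 2616 exon bases with *Zeb2os* and *Gm26735* on the opposite strand. *Sp1*, a general transcription factor, had 8093, 4652 and 262416 counts in primary controls and 38, 45 and 46 with DM (log2 fold change -11.88, standard error 3.84, adjusted p = 0.395, edgeR). The groups did not overlap for any of these 3 genes, which were named for a small unadjusted p, beside 13% of all genes tested in each stage. For *Zeb2* the lowest DM and the highest control library were close, at 25515 and 23567 counts.

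Of the 20 targets, 8 were tested in each stage. *Foxl2*, a transcription factor of granulosa cells that is also on the granulosa marker list, had 40701, 39034 and 4197 counts in primordial controls and 97, 656 and 61 with DM (log2 fold change -6.07, standard error 2.54, adjusted p = 0.644, edgeR). *Smad4* was low in the same 3 DM libraries. Both genes were picked by their values in that comparison, so this likeness follows from the choice. In the 2 primary libraries where *Smad4* was low, control replicate 3 and DM replicate 2, *Foxl2* had its highest counts, 226837 and 474295. A relation between the 2 genes was not tested. *Tgfbi*, a matrix protein induced by TGF-beta, had 9, 6 and 13 counts in primary controls and 52496, 18 and 93 with DM (log2 fold change 10.35, adjusted p = 0.395, edgeR), nearly all of them in DM replicate 1. In the stage comparisons, 0 of 44 list genes in controls and 0 of 39 with DM passed after adjustment, and 3 (6.82%) and 4 (10.3%) did unadjusted in edgeR's test, beside 6.44% and 17.2% of all genes. The interaction passed for 0 of 54 after adjustment and for 9 (16.7%) unadjusted in the same test, beside 18.9% of all genes.

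The genes whose levels over the 12 libraries were most like those of *Smad4* among 8499 compared were *Prep*, a prolyl peptidase (Pearson's r = 0.96 of log2(TMM-scaled CPM + 1)), *Sympk*, a scaffold of the RNA 3' end processing complex (0.93), and *Impdh2*, an enzyme of guanine nucleotide synthesis (0.92). *Prep* had 1689, 6166 and 262 counts in primordial controls and 39, 30 and 2 with DM, and in primary follicles 1616, 421 and 4 in controls and 2851, 2 and 2573 with DM. The same 5 libraries were low as for *Smad4*. *Sympk* had 12007, 6261 and 925 counts in primordial controls, 602, 7 and 3 with DM, 7415, 3017 and 15 in primary controls and 2959, 4 and 5672 in primary DM libraries. *Impdh2*, which shares 48 exon bases with *Ndufaf3* on the opposite strand, had 3289, 1975 and 2125 counts in primordial controls, 313, 3 and 65 with DM, 9854, 2577 and 1 in primary controls and 6034, 7 and 11371 in primary DM libraries. All 3 genes had their 5 lowest libraries where *Smad4* had its own. None belongs to the 9 genes or the 6 lists, and the likeness is described over 12 libraries without a test.

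**Figure D4:**
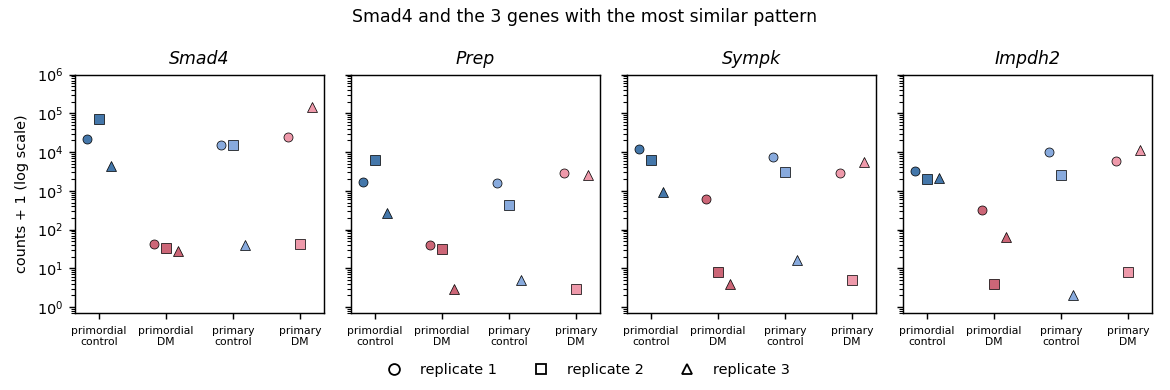
Counts, plus 1, of *Smad4* and of the 3 genes with the highest Pearson's r with it, in each of the 12 libraries on a log axis. Primary control replicate 3 and primary DM replicate 2 and the 3 primordial DM libraries are the 5 lowest libraries in each of the 4 panels.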

How the data were processed

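The authors trimmed reads with trim_galore, mapped them to mm10 and used featureCounts for the gene counts, which they deposited raw. The paper names TopHat2 as the aligner and the submitters' processing notes name STAR. The paper describes both a TruSeq RNA Access and a Smart-seq II preparation. The genes and lists were chosen with earlier results of these data known.

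Counts of the 12 libraries were tested in R 4.3.3 with edgeR 4.0.16 (filterByExpr, TMM, glmQLFit, glmQLFTest, prior count 0.125, Benjamini-Hochberg, threshold 0.05) on the 6 libraries of each comparison. The interaction was fitted over all 12. Standard errors were derived from the fold change and the F statistic. Positions and exon lengths came from GENCODE for GRCm38, and tables were made in Python 3.11.15. No libraries of a group agreed within sampling noise (lowest chi-square over degrees of freedom 1146). Each library is a pool of oocytes that the study calls biologically independent. Depth ran from 14034586 to 42639326 counts, and the floor of 3 counts covers counting error only. The 95% intervals are 2 standard errors either side of edgeR's estimate and include the spread between libraries.

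Named genes are the set, up to 2 genes for each list and DM comparison with the smallest unadjusted p under 0.05, and the 3 genes most like *Smad4*. In simulated counts 200 genes were changed by the same fold, up or down, so the recovery holds for that size of change only. Of these, edgeR recovered 98% in primordial (6699 genes) and 99.5% in primary follicles (4181 genes) at a dispersion of 0.05. At the dispersion of these libraries (3.10 and 3.45) it recovered 0% and DESeq2 10% in each, with 139 and 103 unchanged genes called. Alternatives were DESeq2 1.42.0, its size factors in edgeR, TMMwsp, an unadjusted p, no filter, a minimum of 10 counts in each library, a replicate block, 1 fit of all libraries, library size alone (added later) and leaving out each library.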

Additional observations from a re-analysis of the deposited data

How the results depend on the processing

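Apart from *Smad4*, 254 alternative values were computed over 19 results of the set, of which 230 kept their direction and 24 did not. None of the 247 with an adjusted p passed 0.05, and for the other 7 DESeq2 gave none. With a replicate block, the log2 fold change with DM became -2.30 for *Tgfbr1* in primordial follicles and -6.43 (*Smad2*), -0.28 (*Smad3*) and -0.87 (*Tgfbr1*) in primary follicles, and that of *Smad2* between the stages with DM became -0.27. Same-numbered libraries did not deviate together (r from -0.035 to 0.040), so the block is no pairing. Under library size alone *Smad3* and *Tgfbr1* were -0.57 and -1.13 in primary follicles. *Tgfbr1* between the stages with DM was 0.55 under DESeq2 and under its size factors, 0.0056 without the filter and 0.0096 in a fit of all libraries. Leaving out 1 library gave, in primordial follicles with DM, -3.36 to 2.90 for *Tgfbr1*, -4.19 to 0.16 for *Acvr2a* and -5.36 to 11.07 for *Acvr2b*. In primary follicles it gave -7.95 to 4.44 for *Smad2*, -0.056 to 1.69 for *Smad3*, -0.04 to 1.34 for *Tgfbr1* and -0.085 to 2.59 for *Acvr2b*. Between the stages it gave -0.046 to 2.85 for *Smad2*, -6.52 to 2.11 for *Acvr2b* and -1.98 to 0.42 for *Smad4* in controls, and -7.52 to 3.56 for *Smad2*, -1.04 to 5.19 for *Tgfbr1* and -9.55 to 1.35 for *Acvr2b* with DM. The cause was not tested.

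Counts of all genes called moved more. For DM in primordial follicles, DM in primary follicles, the stages in controls, the stages with DM and the interaction, edgeR called 1, 0, 0, 0 and 0, DESeq2 called 660, 571, 278, 911 and 571, and an unadjusted p under 0.05 in edgeR gave 491, 508, 433, 746 and 1605. The 1 call in primordial follicles became 0 under DESeq2's size factors, no filter, a minimum of 10 counts in each library, the replicate block, the fit of all libraries and library size alone. The stages in controls gave 4 with at least 10 counts and 1 under library size alone. Leaving out 1 library gave 0 to 3 calls for DM in primordial follicles and 0 to 4 for the stages with DM. The biological coefficient of variation was 1.76 and 1.86 and log2 fold changes had a median standard error of 2.84 and 3.14 in the DM comparisons, which limits what 3 libraries a group can show.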
